A study of Mus musculus with 69 samples.

Results

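The maturation of the hippocampus between weaning and young adulthood was followed in wildtype male mice of the control rearing group. Hippocampal RNA was sequenced in 7 animals at P66 and in 8 animals at P22, 15 of the 69 libraries of the series, and these libraries were chosen by their labels alone (environment control, genotype wildtype, and age). The control litters had been handled and otherwise left with the dam, and pups were weaned at P22. Animals of the younger group were killed on that day, and animals of the older group were kept undisturbed until P66. All animals were killed with isoflurane, and the hippocampus was cut from frozen brain slices. The animals came from 2 rounds of breeding, cohort 1 and cohort 2, with 3 and 4 animals at P66 and 4 in each cohort at P22. The other 54 libraries came from Cdh13 knockout mice, from litters separated from the dam for 3 hours a day in the first 2 weeks, or from both, and serve here only to ask whether the same genes moved in other animals. The labels name neither the litters nor the strain. Time after weaning and age run together in this design and cannot be told apart.

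In rodents the weeks after weaning are the time when the hippocampus completes most of its wiring. Oligodendrocyte precursors become myelinating cells and wrap axons in myelin, a membrane stack rich in cholesterol and galactolipids. Granule neurons continue to be born in the dentate gyrus but at a declining rate, the sprouting of vessels subsides, and a matrix of proteoglycans and tenascins settles around neurons. RNA levels of a whole hippocampus reflect both how many cells of a type are present and how much RNA each holds, so that fewer cells of a type and less RNA per cell cannot be told apart in any result given here.

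The counts cover 9930 protein-coding genes, those of chromosomes 1 to 7 and a stretch of chromosome 8, and genes elsewhere were not analysed here. Over these genes libraries held 12269493 to 13403835 counts at P66 and 12050697 to 13704718 counts at P22. Levels are given as CPM, counts scaled to library size by TMM. Changes are log2 fold changes of P66 over P22 ± standard error (SE), so that a negative value is a lower level at P66. A gene was called changed at a Benjamini-Hochberg adjusted p under 0.05 in edgeR's quasi-likelihood test with cohort as a covariate. Genes of hippocampal principal cells were present at both ages, among them Prox1 of dentate granule cells (227 to 333 CPM at P66 and 222 to 416 CPM at P22). Neurod6 of pyramidal cells had 389 to 512 CPM at P66 and 359 to 471 CPM at P22. The first principal component (26.8% of the variance) separated all animals of P66 from all animals of P22. Leading the second (17.1%) were choroid plexus genes. The choroid plexus is the neighbouring tissue that makes cerebrospinal fluid. On this component 3 P22 libraries lay apart from the rest, named by cohort and animal number. C1-32 and C2-27 were at one end (-16.63 and -14.64, the next at -9.48) and had the highest choroid plexus scores, the mean log2 CPM of those genes. C1-56 was at the other end (15.05, the next at 9.24) and had the lowest score. The summed level of the 20 choroid plexus genes was 487 to 921 CPM at P66 and 400 to 987 CPM at P22, with overlap.

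Of 6906 genes tested, 1606 (23.3%) were called, 710 (10.3%) higher and 896 (13%) lower at P66. Most changes were small: of the called genes 866 differed by less than 1.2-fold, 531 by 1.2 to 1.5-fold, 146 by 1.5 to 2-fold and 63 by 2-fold or more. The median called rise was 1.17-fold and the median called fall 1.21-fold, while the median of all tested genes was at a log2 fold change of 0.001. Large changes were mostly falls: among the 63 genes that differed by 2-fold or more, 7 were higher and 56 lower at P66. A test against a change of 1.5-fold (edgeR's glmTreat) passed 35 genes (0.507%), 1 higher and 34 lower. All P66 animals lay above all P22 animals in 170 genes (2.46%) and below them in 291 genes (4.21%). With upper-quartile scaling in place of TMM, 1092 genes were higher and 650 lower, so the balance of small rises and falls depended on the scaling; that scaling moved the median of all genes to 0.04.

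**Figure D1:**
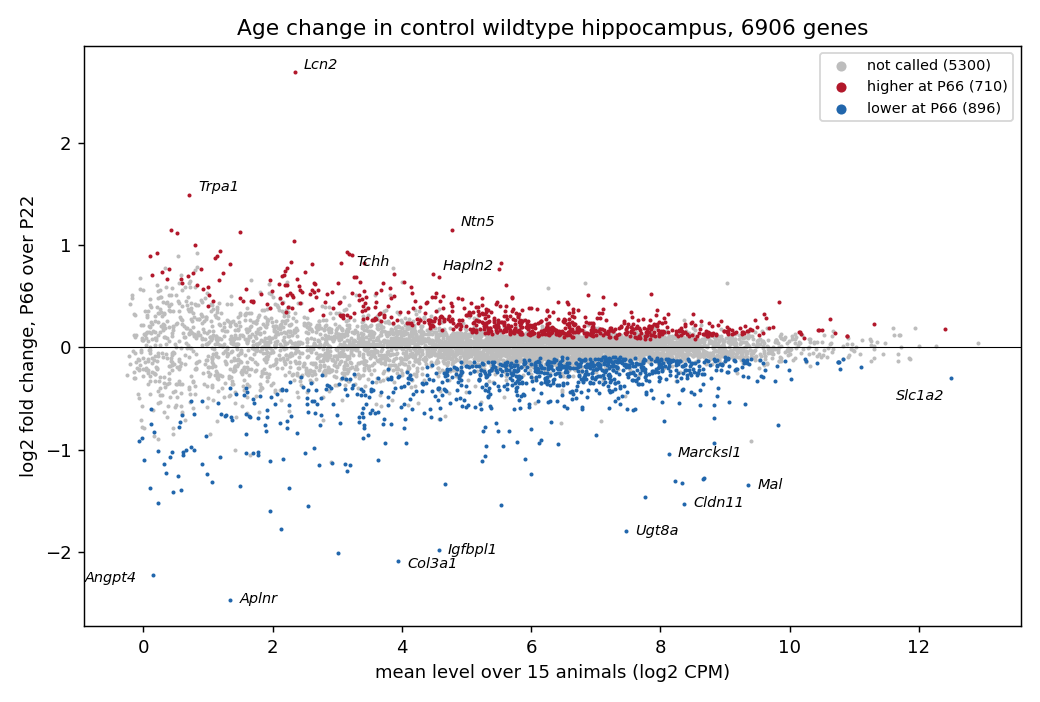
Each point is 1 of the 6906 genes tested, with its mean level over the 15 animals (log2 CPM, horizontal) and its log2 fold change of P66 over P22 (vertical); red marks the 710 genes called higher at P66, blue the 896 called lower, and grey the genes not called. The points farthest from 0 lie mostly below it, and the changes of abundant genes are small.

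The share of genes called was 17.1% in the lowest quartile of expression and 24.5% to 25.8% in the other quartiles, and the median size of a called change was 0.58 (log2) in the lowest quartile and 0.18 in the highest. At this precision a change of 1.06 to 1.07-fold was called in the 12 smallest called changes among genes whose mean log2 CPM reached 5 or more. Between chromosomes the share called ran from 21.4% (chromosome 7) to 27.3% (chromosome 8, 99 genes). Grouped by the stem of their symbol, genes of solute carriers (Slc) were called in 30.6% of 124 tested, 11 higher and 27 lower, and the genes named Zfp, for zinc finger proteins that mostly bind DNA, in 7.57% of 185, 8 higher and 6 lower. Of the 1606 called genes 1336 (83.2%) belong to none of the 47 gene lists used below, so the lists describe a minor share of the change. Some genes stand in several lists and are counted in each. The counts called in each list are to be read beside the shares of all tested genes. These were 10.3% called higher, 13% lower and 23.3% in either direction.

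Most genes of the oligodendrocyte lineage were lower at P66, those of the precursor as well as those of the myelinating cell. All 14 tested genes of oligodendrocyte precursors and premyelinating cells were called lower (13% of all genes were), with a median log2 fold change of -0.40 against 0.001 over all genes, and in 7 of them all P66 animals lay below all P22 animals (4.21% of all genes did). The list's mean log2 CPM was 6.23 to 6.37 at P66 and 6.69 to 6.89 at P22, without overlap. Neu4, a sialidase of the lineage, had 24 to 27.9 CPM at P66 (median 26.9) and 44.8 to 57 CPM at P22 (median 49.2) (log2 fold change -0.97 ± 0.05, adjusted p = 1.2e-08). Every P66 animal lay below every P22 animal for Neu4, and the animals within an age lay close together. Tmem163, a zinc transporter, had 19.8 to 27.1 CPM at P66 (median 23.3) and 40.5 to 65.3 CPM at P22 (median 50.1) (-1.11 ± 0.11, adjusted p = 1.8e-06). Bcas1, which marks cells about to myelinate, had 168 to 234 CPM at P66 (median 195) and 261 to 415 CPM at P22 (median 310) (-0.72 ± 0.10, adjusted p = 0.00012). Nkx2-2, a transcription factor of the lineage, had 6.75 to 11 CPM at P66 (median 8.42) and 12 to 17.4 CPM at P22 (median 14) (-0.64 ± 0.11, adjusted p = 0.00062). None of these overlapped between the ages. The smallest fall in the list was 0.20 on the log2 scale, in Matn4.

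Of 20 tested genes of myelin and mature oligodendrocytes, 11 were called lower and 2 higher, with a median of -0.57. Ugt8a (chr3:125865271-125938619), the enzyme that makes the galactolipids of myelin, had 59.2 to 104 CPM at P66 (median 74.4) and 189 to 339.5 CPM at P22 (median 247) (-1.80 ± 0.13, adjusted p = 2.8e-07). Cldn11, the claudin of the tight junctions in myelin, had 123 to 235 CPM at P66 (median 174) and 366 to 626 CPM at P22 (median 445) (-1.53 ± 0.16, adjusted p = 8.7e-06). Mal, a membrane protein of compact myelin, had 266 to 547 CPM at P66 (median 344) and 678 to 1238 CPM at P22 (median 902) (-1.35 ± 0.17, adjusted p = 6.3e-05). Gsn, an actin-severing protein abundant in oligodendrocytes, had 89.4 to 144 CPM at P66 (median 114) and 230.3 to 473 CPM at P22 (median 282) (-1.46 ± 0.18, adjusted p = 7.8e-05). In all 4 genes every P66 animal lay below every P22 animal, as in 9 of the 20. At P22 the level of these genes varied widely between animals, and the list's mean log2 CPM was 5.68 to 6.35 at P66 and 6.27 to 7.01 at P22, with overlap. Its summed level, which the abundant members set, was 2060 to 3120 CPM at P66 and 3560 to 5830 CPM at P22, without overlap. The P22 libraries C1-32 and C2-27, which had the highest choroid plexus scores of their age, were also the highest of their age in this list, and the part of choroid plexus or of other tissue cut out with it was not tested. Without them 11 members were called lower and 4 higher.

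The 2 members called higher went against most of the list, where 15 log2 fold changes were negative and 5 positive. The largest positive one was that of Klk6, which was not called (0.89, adjusted p = 0.07). Hapln2, the link protein of the matrix at nodes of Ranvier, had 24.8 to 35.4 CPM at P66 (median 27.6) and 11.4 to 24.2 CPM at P22 (median 15.3) (0.72 ± 0.18, adjusted p = 0.0074), and all P66 animals lay above all P22 animals. Car2, a cytosolic carbonic anhydrase of oligodendrocytes and choroid plexus, had 322 to 372 CPM at P66 (median 342) and 262 to 335 CPM at P22 (median 300.3) (0.19 ± 0.05, adjusted p = 0.015), with overlap between the ages. Plekhb1 was not called and had 362 to 501 CPM at P66 (median 424) and 304 to 434 CPM at P22 (median 362) (0.22 ± 0.09, adjusted p = 0.08). Gpr37, a receptor of oligodendrocytes, was not called either and had 99.7 to 131 CPM at P66 (median 123) and 120.3 to 158 CPM at P22 (median 133) (-0.20 ± 0.08, adjusted p = 0.064). Sirt2, a deacetylase that is most abundant in myelinating cells and was listed here under chromatin, had 292 to 323 CPM at P66 (median 302) and 485 to 709.6 CPM at P22 (median 573) (-0.94 ± 0.08, adjusted p = 5.9e-07), without overlap.

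Cholesterol synthesis, on which myelin membranes draw, held falls as well. Of 11 tested genes 6 were called lower and 0 higher (median -0.25). Cyp51, the lanosterol demethylase, had 124 to 139.5 CPM at P66 (median 132) and 177 to 223 CPM at P22 (median 194) (-0.56 ± 0.05, adjusted p = 5.8e-07). Dhcr7, which makes cholesterol in the last step of the pathway, had 85.3 to 103 CPM at P66 (median 90.02) and 105 to 129 CPM at P22 (median 116) (-0.34 ± 0.05, adjusted p = 0.00014). Neither overlapped between the ages. Hsd17b7, another enzyme of the pathway, was lower as well (-0.29 ± 0.04, adjusted p = 2.8e-05). Insig1 and Insig2, which hold back the pathway's transcription factor, were not called (0.09 ± 0.08 and 0.05 ± 0.05).

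**Figure D2:**
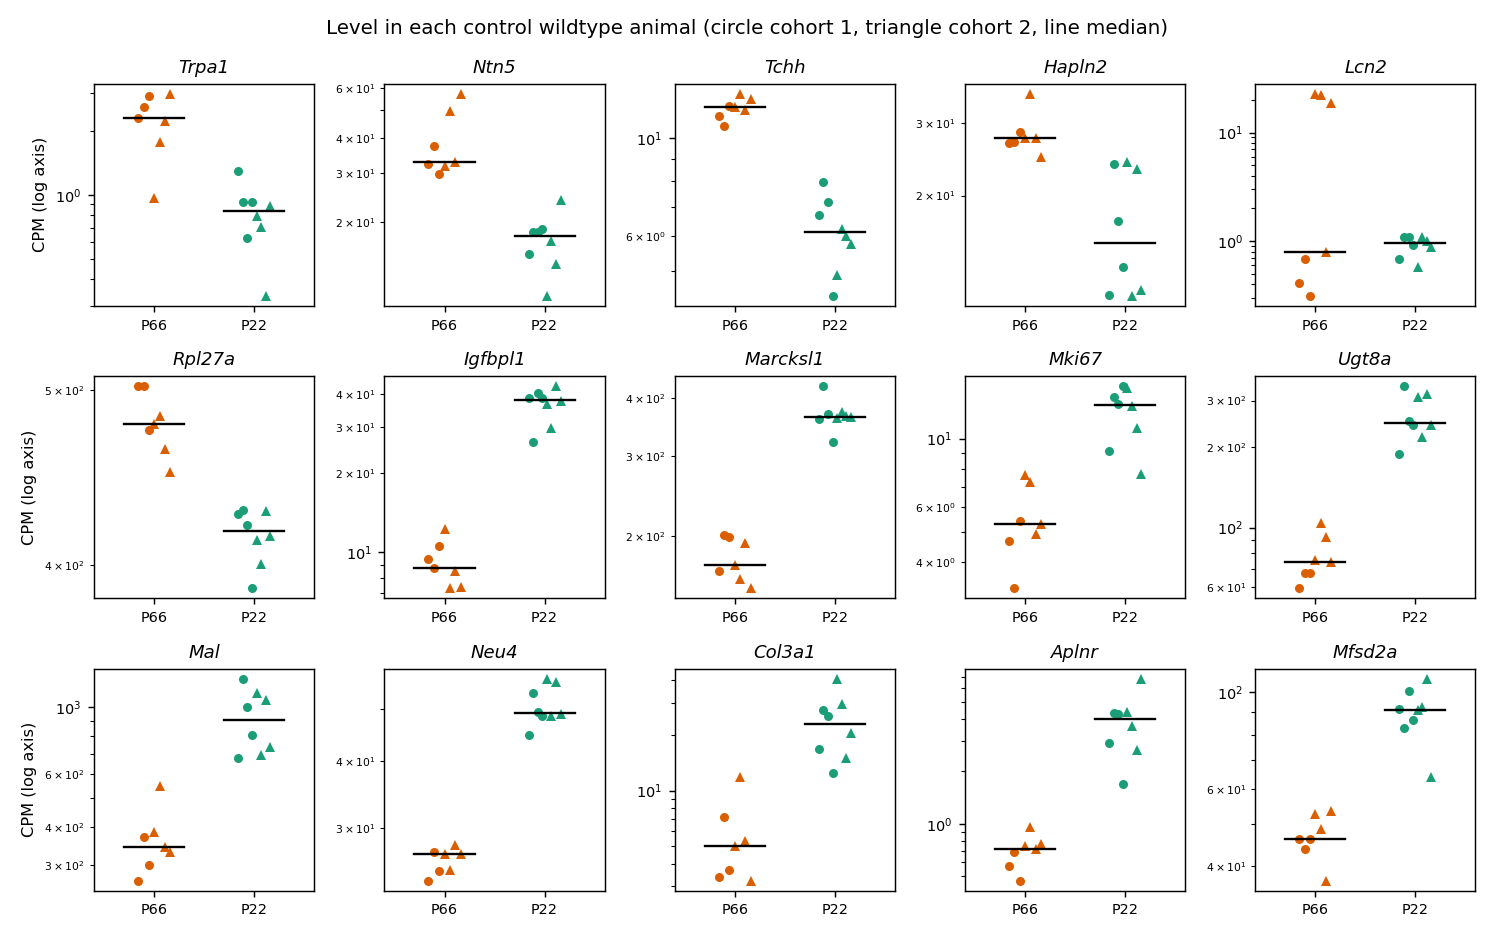
CPM (vertical, log axis) of 15 genes in each of the 7 P66 animals (left, orange) and 8 P22 animals (right, green); circles are cohort 1, triangles cohort 2, and lines the group medians. Igfbpl1, Marcksl1, Mki67, Ugt8a, Mal, Neu4, Col3a1, Aplnr and Mfsd2a lie lower in all P66 animals, Ntn5, Tchh, Hapln2 and Rpl27a higher in all of them, Trpa1 overlaps in 1 P66 animal, and in Lcn2 3 P66 animals stand far above the others.

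Many genes of newborn neurons were lower at P66. Of 29 tested genes of newborn neurons and neural stem cells 14 were called lower and 1 higher (median -0.24), and the list's mean log2 CPM was 5.55 to 5.70 at P66 and 5.97 to 6.05 at P22, without overlap. The other 14 were not called. The log2 fold change was positive in 5 members, Sox2, Insm1, Pax6, Hes5 and Hopx. Igfbpl1 (chr4:45809468-45826923), a protein of immature neurons related to the binding proteins of insulin-like growth factors, had 7.31 to 12.2 CPM at P66 (median 8.73) and 26.3 to 42.8 CPM at P22 (median 38.1) (-1.98 ± 0.13, adjusted p = 2.3e-08). Draxin, a secreted axon guidance protein, had 3.84 to 6.57 CPM at P66 (median 4.92) and 10.3 to 13.7 CPM at P22 (median 12.1) (-1.20 ± 0.11, adjusted p = 9.3e-07). Both were lower in every P66 animal than in every P22 animal. Lpar1, a receptor for lysophosphatidic acid that oligodendrocytes also carry, had 27.7 to 52.2 CPM at P66 (median 37.8) and 60.2 to 107 CPM at P22 (median 76.4) (-1.09 ± 0.14, adjusted p = 3.6e-05). Tfap2c, a transcription factor of neural progenitors, had 0.153 to 1.15 CPM at P66 (median 0.713) and 0.852 to 1.93 CPM at P22 (median 1.48) (-1.14 ± 0.27, adjusted p = 0.0058), and the ages overlapped. Sox2, the transcription factor of stem cells that astrocytes also carry, was the member called higher. It had 55.3 to 71.3 CPM at P66 (median 59.98) and 42.6 to 66 CPM at P22 (median 51.7) (0.24 ± 0.08, adjusted p = 0.046), and that call was kept in 5 of the 15 fits that each left out 1 animal. Stmn1, which destabilises microtubules in young neurons, was not called and had 411 to 518 CPM at P66 (median 499) and 466 to 629.5 CPM at P22 (median 523) (-0.15 ± 0.07, adjusted p = 0.12).

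Several genes of axon growth and of the young cytoskeleton were lower as well. In the axon growth list 8 of 16 tested genes were called lower and 0 higher (median -0.17). Some of these, Marcksl1 and Dpysl5 among them, were also counted in the list of newborn neurons. Marcksl1, an actin regulator of growing neurites, had 154 to 202 CPM at P66 (median 173) and 321 to 425 CPM at P22 (median 365) (-1.04 ± 0.06, adjusted p = 2.1e-08). Dpysl5, a collapsin response mediator of young neurons, had 76.2 to 101 CPM at P66 (median 88) and 146 to 182 CPM at P22 (median 159.9) (-0.85 ± 0.06, adjusted p = 8e-08). Fscn1, which bundles actin in growth cones, had 291 to 329 CPM at P66 (median 299) and 361 to 476 CPM at P22 (median 419.9) (-0.46 ± 0.05, adjusted p = 3.6e-06). None of the 3 overlapped between the ages. Map2, of mature dendrites, and Actb, beta actin, were not called, with log2 fold changes of 0.07 ± 0.06 and -0.01 ± 0.07. Among 31 tested axon guidance genes 6 were called lower and 3 higher, a share of 29% beside 23.3% of all genes. Of these falls Draxin and Sema3c were also counted in the list of newborn neurons. Sema3c had 49.2 to 66.8 CPM at P66 (median 61) and 74.1 to 105 CPM at P22 (median 100.2) (-0.73 ± 0.08, adjusted p = 6.3e-06), without overlap. Ephb6, an ephrin receptor without kinase activity, had 184 to 208 CPM at P66 (median 194) and 144 to 184 CPM at P22 (median 172) (0.23 ± 0.05, adjusted p = 0.0047), with all P66 animals above all P22 animals.

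Genes of the cell cycle were called in both directions, with more and larger falls. Of 38 tested genes 17 were called lower and 4 higher (median -0.26), and the list's mean log2 CPM was 2.91 to 3.27 at P66 and 3.28 to 3.52 at P22, close to each other but without overlap. Mki67 (chr7:135689784-135716361), the protein that coats mitotic chromosomes and marks proliferating cells, had 3.29 to 7.61 CPM at P66 (median 5.29) and 7.7 to 14.8 CPM at P22 (median 12.8) (-1.15 ± 0.18, adjusted p = 0.00017). Ube2c, the ubiquitin-conjugating enzyme of the anaphase-promoting complex, had 0.657 to 1.61 CPM at P66 (median 1.07) and 1.83 to 2.59 CPM at P22 (median 2.29) (-1.14 ± 0.18, adjusted p = 0.00017). Neither overlapped between the ages. Bub1, a kinase of the spindle checkpoint, had 0.562 to 1.26 CPM at P66 (median 0.821) and 1.01 to 2.48 CPM at P22 (median 1.9) (-1.05 ± 0.21, adjusted p = 0.0015). Melk, a kinase of dividing progenitors, had 0.411 to 1.1 CPM at P66 (median 0.643) and 1.12 to 2.24 CPM at P22 (median 1.51) (-1.02 ± 0.22, adjusted p = 0.0033). Melk did not overlap between the ages and Bub1 did. The 4 members called higher were Ccne1, a cyclin of the entry into S phase (0.26 ± 0.06, adjusted p = 0.0043), the replicative helicase subunits Mcm2 (0.26 ± 0.09, adjusted p = 0.036, a call kept in 7 of the 15 fits that each left out 1 animal) and Mcm6 (0.22 ± 0.07, adjusted p = 0.023), and Cdc25b, a phosphatase that activates cyclin-dependent kinases (0.20 ± 0.05, adjusted p = 0.015). In all 4 the ages overlapped. Of the other genes of cell cycle entry and replication, Ccnd2, a D-type cyclin (-0.24 ± 0.05), and Gins1, a helicase subunit (-0.47 ± 0.14), were lower. Ccnd1, another D-type cyclin, was not called (0.10), and neither were Pcna, Mcm3 and Mcm7, among others. In GENCODE M21 the exons of Ube2c share 22.8% of their bases with Tnnc2 on the other strand. The sources used here do not say whether reads were counted by strand.

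The promoters of cell cycle genes that fell together are shown for the letters they share. Cdc20, an activator of the anaphase-promoting complex (-0.65 ± 0.20, adjusted p = 0.024), and Cks1b, a subunit of cyclin-dependent kinases (-0.48 ± 0.11, adjusted p = 0.0055), were lower along with Mki67 and Ube2c. The 150 bases before the RefSeq start (GRCm38.p6) are printed for 4 of them, in the direction of transcription, and capitals mark TTTGAA or CCAAT on either strand. Mki67 was read from chr7:135716380-135716529 (minus strand), Ube2c from chr2:164769779-164769928 (plus strand), Cdc20 from chr4:118437344-118437493 (minus strand) and Cks1b from chr3:89418292-89418441 (minus strand).
Mki67: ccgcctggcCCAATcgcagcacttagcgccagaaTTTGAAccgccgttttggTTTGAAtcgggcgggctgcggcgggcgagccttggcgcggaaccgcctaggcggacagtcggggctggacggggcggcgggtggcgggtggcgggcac
Ube2c: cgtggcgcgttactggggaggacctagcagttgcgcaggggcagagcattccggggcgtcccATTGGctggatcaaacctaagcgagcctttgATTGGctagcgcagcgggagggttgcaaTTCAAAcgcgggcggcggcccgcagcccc
Cdc20: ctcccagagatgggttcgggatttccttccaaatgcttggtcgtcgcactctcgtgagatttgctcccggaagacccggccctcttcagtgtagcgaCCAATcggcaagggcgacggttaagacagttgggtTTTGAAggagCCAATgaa
Cks1b: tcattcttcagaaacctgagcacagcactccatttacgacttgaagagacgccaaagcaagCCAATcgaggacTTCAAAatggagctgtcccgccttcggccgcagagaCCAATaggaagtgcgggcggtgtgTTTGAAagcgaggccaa
Of the 17 cell cycle genes called lower, 14 had a promoter entry. The motif CCAAT, which the factor NF-Y binds, was in this window in 10 of the 14 (25.3% of the 27025 promoters with an entry), and TTTGAA, the core of the cell cycle homology region, in 5 of them (9.24% of all promoters). TTTAAA was in 1 (6.79%) and ACAAAG in 2 (9.78%). Of 8 other motifs looked for on both strands none was found in the 14 windows. They were GCGGGAA (2.63% of all promoters), GGCGGGAA (1.38%, and it holds the motif before it), CAGGTG (10.5%), ACAATG (6.56%), CACGTG (4.3%) and TCACNCCAC (0.622%). The others were TTTGAA with CCAAT after a gap of 5 bases (0.0148%) and the palindromic glucocorticoid response element (0.0074%). Of the cholesterol genes called lower 4 had an entry. CCAAT was in 3 of these, TTTAAA was in 1, ACAAAG was in 1 and CACGTG was in 1. The 4 printed genes were chosen because they hold both motifs, after the search, and the counts carry no test.

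Vascular genes formed another group of falls. Of 26 tested genes of endothelium and pericytes 13 were called lower and 1 higher (median -0.18). Aplnr (chr2:85136225-85139923), the apelin receptor of sprouting endothelium, had 0.471 to 0.964 CPM at P66 (median 0.713) and 1.7 to 6.81 CPM at P22 (median 3.98) (-2.47 ± 0.26, adjusted p = 3.4e-06), the deepest called fall. Angpt4, an angiopoietin that stood outside the list, was low at both ages, with 0.23 to 0.555 CPM at P66 (median 0.298) and 0.802 to 2.01 CPM at P22 (median 1.6) (-2.22 ± 0.27, adjusted p = 1.5e-05). Neither overlapped between the ages. Mfsd2a, the transporter that carries lysophospholipids with docosahexaenoic acid across the blood-brain barrier, had 37.1 to 53.5 CPM at P66 (median 46.2) and 64 to 108 CPM at P22 (median 91.3) (-0.94 ± 0.10, adjusted p = 4.3e-06). Slc2a1, the glucose transporter of the barrier, had 146 to 162 CPM at P66 (median 149) and 191 to 286 CPM at P22 (median 230.2) (-0.61 ± 0.08, adjusted p = 5.4e-05). Both were lower in every P66 animal than in every P22 animal. Flt1, a receptor for vascular endothelial growth factor, was called higher and had 124 to 143 CPM at P66 (median 134) and 99.2 to 125 CPM at P22 (median 117) (0.23 ± 0.05, adjusted p = 0.0016). The efflux pump Abcb1a (-0.11 ± 0.04) and the organic anion transporter Slco1a4 (-0.11 ± 0.07) were not called. Transcripts of the beta globins were also lower at P66. Hbb-bs had 139 to 340.3 CPM at P66 (median 216) and 454 to 634 CPM at P22 (median 555) (-1.29 ± 0.15, adjusted p = 2.8e-05). Hbb-bt had 103 to 248 CPM at P66 (median 164) and 336 to 474 CPM at P22 (median 413) (-1.31 ± 0.15, adjusted p = 2.3e-05). The globin pair was chosen after its values were seen, and the 2 genes are near-identical copies that can share reads. What part blood left in the vessels has in the vascular values was not tested.

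In the extracellular matrix 12 of 32 tested collagen and vascular matrix genes were called lower and 0 higher (median -0.24). Col3a1 (chr1:45311538-45349706), a fibrillar collagen of fibroblasts, had 3.22 to 11.9 CPM at P66 (median 5) and 12.5 to 40.7 CPM at P22 (median 23) (-2.08 ± 0.30, adjusted p = 0.00015). Eln (chr5:134702593-134747323), elastin, had 20.02 to 29.5 CPM at P66 (median 21.7) and 48.6 to 111 CPM at P22 (median 60.7) (-1.54 ± 0.14, adjusted p = 1.4e-06). Both were lower in every P66 animal than in every P22 animal. Col1a2 had 16.4 to 44.5 CPM at P66 (median 20.8) and 28.1 to 89.8 CPM at P22 (median 43.6) (-1.06 ± 0.27, adjusted p = 0.012). Col9a1 had 1.53 to 2.46 CPM at P66 (median 1.98) and 2.65 to 4.77 CPM at P22 (median 3.35) (-0.85 ± 0.15, adjusted p = 0.00056). Col9a1 did not overlap between the ages and Col1a2 did. Of the basement membrane collagens Col4a1 was called lower (-0.35 ± 0.06, adjusted p = 0.00029) and Col4a2 was not (-0.12 ± 0.06). Without the P22 libraries C1-32 and C2-27 the list had 10 genes called lower and 3 higher, and without C1-56 as well 9 and 3. Col3a1 and Col1a2 are also markers of the meninges and of perivascular fibroblasts. The other 14 of the 16 tested markers of those cells were not called, and the list's median was -0.04. Among them Ptgds, a prostaglandin synthase, had 305 to 1478 CPM at P66 (median 654) and 86.8 to 739 CPM at P22 (median 372) (0.63 ± 0.46, adjusted p = 0.36). The summed level of that list was 1020 to 2420 CPM at P66 and 715 to 1880 CPM at P22. In the matrix around neurons 7 of 16 tested genes were called lower and 2 higher. Most of these were also counted in other lists. Among the falls, Tnr was counted with oligodendrocyte precursors, Adamts4 with myelin, Tnc with the collagens and Reln with the interneuron genes. The rise of Hapln2 was counted with myelin. Tnc, the tenascin of developing and stem cell tissue, had 21.7 to 31 CPM at P66 (median 27.4) and 40.03 to 56.8 CPM at P22 (median 49.2) (-0.81 ± 0.09, adjusted p = 1.2e-05). Adamts4, a protease of matrix proteoglycans that oligodendrocytes make, had 26.5 to 48.4 CPM at P66 (median 37.1) and 66.1 to 125 CPM at P22 (median 76.1) (-1.24 ± 0.15, adjusted p = 3.6e-05). Nptx2, a neuronal pentraxin of excitatory synapses, had 67 to 86.6 CPM at P66 (median 73.4) and 86.8 to 118 CPM at P22 (median 100.3) (-0.47 ± 0.07, adjusted p = 8.8e-05). All 3 were lower in every P66 animal. Mmp17 was called higher (0.15 ± 0.04, adjusted p = 0.019).

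**Figure D3:**
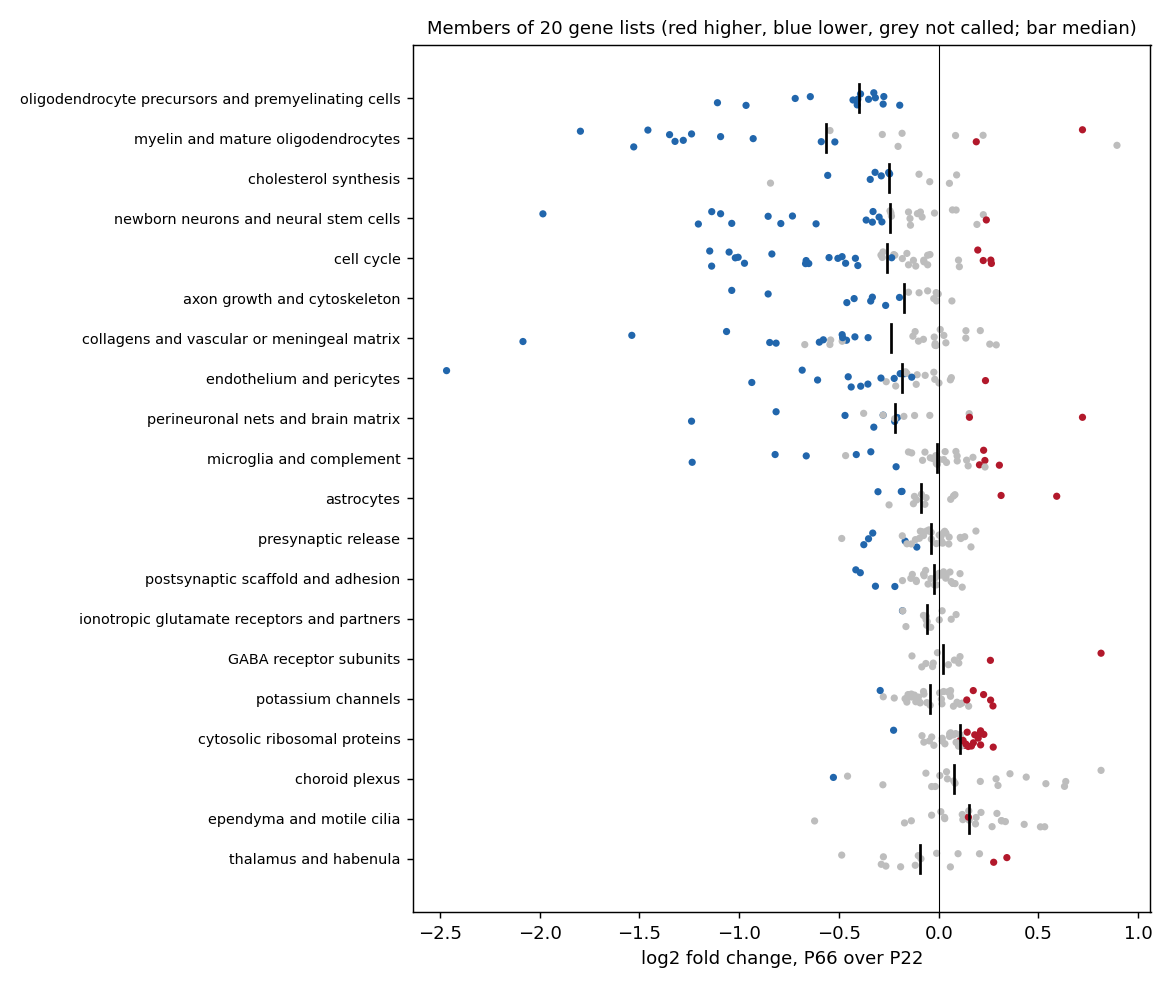
Log2 fold change of P66 over P22 (horizontal) of each tested member of 20 gene lists, 1 list a row; red points are genes called higher at P66, blue called lower, grey not called, and the bar is the list's median. All 14 points of the oligodendrocyte precursor list are blue, most points of the synaptic lists are grey and near 0, and 16 of 36 ribosomal protein genes are red.

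Few genes of synaptic transmission were called. Of 13 tested genes of ionotropic glutamate receptors and their partners 1 was called. It was Grik3, a kainate receptor subunit with 279 to 323 CPM at P66 (median 301) and 303 to 390.3 CPM at P22 (median 328) (-0.18 ± 0.06, adjusted p = 0.037). That call was kept in 6 of the 15 fits that left out 1 animal, and with upper-quartile scaling or in either cohort alone it was lost. Gria2, the AMPA receptor subunit that blocks calcium entry, had 1312 to 2083 CPM at P66 (median 1925) and 1549 to 2203 CPM at P22 (median 1761) (0.02 ± 0.10). Grin2b, an NMDA receptor subunit, had 950.5 to 1479 CPM at P66 (median 1159) and 899 to 1809 CPM at P22 (median 1301) (-0.18 ± 0.14). Neither Gria2 nor Grin2b was called. Among 5 tested genes of the metabotropic glutamate receptor list, which also holds Homer2, Grm3 was called higher (0.21 ± 0.06, adjusted p = 0.013). Of 12 tested genes of the GABA receptor list, which holds Shisa7 and Clptm1 besides subunits, 2 were called higher and 0 lower. Gabrd, the delta subunit of extrasynaptic receptors, had 54.5 to 73.6 CPM at P66 (median 64.5) and 46 to 62.4 CPM at P22 (median 52.7) (0.26 ± 0.07, adjusted p = 0.015). Gabrr2, a rho subunit, had 2.06 to 4.42 CPM at P66 (median 3.22) and 1.24 to 2.82 CPM at P22 (median 1.46) (0.81 ± 0.22, adjusted p = 0.012). Both overlapped between the ages. Slc12a5, the potassium chloride cotransporter that keeps neuronal chloride low, had 1137 to 1267 CPM at P66 (median 1186) and 986 to 1160 CPM at P22 (median 1093) (0.15 ± 0.04, adjusted p = 0.013). Gad1, which makes GABA, was not called (0.08 ± 0.04).

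In the presynaptic list 5 of 34 tested genes were called lower and 0 higher. Rims4, a scaffold of the active zone, had 115 to 137 CPM at P66 (median 119.6) and 151 to 177 CPM at P22 (median 158) (-0.38 ± 0.05, adjusted p = 3.5e-05). Vamp3, a vesicle fusion protein, had 58.2 to 66.9 CPM at P66 (median 62.1) and 68.5 to 92.3 CPM at P22 (median 80.6) (-0.35 ± 0.06, adjusted p = 0.00054). Neither overlapped between the ages. Snap25, a SNARE protein of neurons, was not called and had 3654 to 4851 CPM at P66 (median 3981) and 3123 to 3966 CPM at P22 (median 3799) (0.19 ± 0.08, adjusted p = 0.086). Of 29 tested genes of the list of postsynaptic scaffolds and adhesion molecules 4 were called lower and 0 higher. Cadm4, an adhesion molecule, had 251 to 286 CPM at P66 (median 278) and 297 to 418 CPM at P22 (median 373) (-0.42 ± 0.06, adjusted p = 0.00012). Ptprd, a receptor phosphatase of synapse formation, had 326 to 467 CPM at P66 (median 428) and 479.9 to 575 CPM at P22 (median 528) (-0.39 ± 0.07, adjusted p = 0.00066). Dlg2, a postsynaptic scaffold, had 841 to 959 CPM at P66 (median 944) and 972 to 1164 CPM at P22 (median 1109) (-0.22 ± 0.05, adjusted p = 0.002). None of the 3 overlapped between the ages. With upper-quartile scaling 3 genes of the presynaptic list and 2 of the scaffold and adhesion list were called higher. The shares called, 14.7% and 13.8%, were under the 23.3% of all genes. Of 37 tested potassium channel genes 5 were called higher and 1 lower, a share of 16.2%. Of 12 tested sodium and calcium channel genes edgeR and DESeq2 each called 0 (2 at an unadjusted p under 0.05 in edgeR). Scn2a had 652 to 807 CPM at P66 (median 786) and 726 to 939 CPM at P22 (median 843) (-0.15 ± 0.06, adjusted p = 0.082).

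Genes of neuronal identity and modulation were called in both directions. Among 21 tested interneuron genes 1 was called higher and 4 lower, a share of 23.8% beside 23.3% of all genes. Nos1, the neuronal nitric oxide synthase, had 244 to 302 CPM at P66 (median 289.7) and 160.2 to 253 CPM at P22 (median 218) (0.36 ± 0.08, adjusted p = 0.0028). Ndnf, of neurogliaform cells, had 66 to 88.6 CPM at P66 (median 79) and 84.2 to 119 CPM at P22 (median 101) (-0.35 ± 0.08, adjusted p = 0.0052). Nos1 was the member called higher. Reln, the secreted protein of Cajal-Retzius cells and some interneurons, had 173 to 238 CPM at P66 (median 194) and 201 to 261 CPM at P22 (median 226) (-0.21 ± 0.07, adjusted p = 0.031), a call kept in 9 of those 15 fits. Oxtr, the oxytocin receptor, had 27.9 to 38.8 CPM at P66 (median 35.6) and 40.4 to 50.7 CPM at P22 (median 43.3) (-0.37 ± 0.07, adjusted p = 0.00062), without overlap. In separated wildtype, control knockout and separated knockout mice its change was 0.01, -0.40 and 0.01. Pdyn, the precursor of dynorphins in granule cells, was higher and had 31.6 to 46.4 CPM at P66 (median 34.7) and 25.1 to 37.3 CPM at P22 (median 30.7) (0.35 ± 0.09, adjusted p = 0.0093). Drd5, a dopamine receptor, was higher and had 32.8 to 41.8 CPM at P66 (median 36.9) and 24.5 to 34.2 CPM at P22 (median 28) (0.33 ± 0.08, adjusted p = 0.0083). C1ql2, a synaptic protein of granule cells, had 128 to 199 CPM at P66 (median 159) and 94.8 to 141 CPM at P22 (median 111) (0.49 ± 0.10, adjusted p = 0.0029). Prox1, the fate factor of the same cells, was called lower. It had 227 to 333 CPM at P66 (median 258) and 222 to 416 CPM at P22 (median 346) (-0.33 ± 0.11, adjusted p = 0.045), a call kept in 3 of the 15 fits that each left out 1 animal. Among growth factor genes 5 of 33 were called lower and 3 higher, 24.2% and again close to the share of all genes. Lower were Irs1, the adaptor of insulin receptors (-0.39 ± 0.07, adjusted p = 0.0005), and Ptn, pleiotrophin (-0.30 ± 0.05, adjusted p = 0.00042), among others. Acvr1c, an activin receptor, was higher (0.38 ± 0.10, adjusted p = 0.014). Exons of Drd5 and Irs1 share 48.6% and 30.9% of their bases with genes on the other strand in GENCODE M21. Fzd1, a Wnt receptor, had 18.6 to 23.9 CPM at P66 (median 22) and 28.1 to 34.1 CPM at P22 (median 31) (-0.54 ± 0.07, adjusted p = 3.9e-05), without overlap.

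Astrocyte and microglial genes were called in both directions. Of 15 tested astrocyte genes 3 were called lower and 2 higher, a share of 33.3% beside 23.3% of all genes. Slc1a2, the main glutamate transporter of the forebrain and one of the most abundant transcripts here, had 4801 to 5388 CPM at P66 (median 5118) and 5384 to 6626 CPM at P22 (median 6407) (-0.30 ± 0.04, adjusted p = 0.00011), and the ages overlapped. Paqr6 had 17.6 to 26.2 CPM at P66 (median 20.4) and 10.3 to 16.3 CPM at P22 (median 14.7) (0.59 ± 0.10, adjusted p = 0.00032), with all P66 animals above all P22 animals. Of 31 tested genes of microglia and complement 6 were called lower and 4 higher (median -0.01), a share of 32.3%. Markers of macrophages around vessels and in the meninges were among the falls. Lyve1, a hyaluronan receptor, had 0.872 to 1.3 CPM at P66 (median 1.02) and 1.45 to 3.12 CPM at P22 (median 2.56) (-1.24 ± 0.18, adjusted p = 9.4e-05). Cd163, the haemoglobin scavenger receptor, had 1.51 to 4.58 CPM at P66 (median 2.38) and 1.98 to 5.56 CPM at P22 (median 4.64) (-0.82 ± 0.22, adjusted p = 0.012). Mrc1, the mannose receptor, had 3.04 to 11 CPM at P66 (median 6.04) and 6.33 to 13.2 CPM at P22 (median 9.13) (-0.66 ± 0.19, adjusted p = 0.015). Of these 3 genes Lyve1 did not overlap between the ages, and Cd163 and Mrc1 did. The other members called lower were Mertk (-0.41, adjusted p = 0.0089), Fcrls (-0.34, adjusted p = 0.00067) and Inpp5d (-0.21, adjusted p = 0.017). Higher were Csf1, a ligand of the colony stimulating factor receptor (0.30 ± 0.07, adjusted p = 0.0058), C1qa, a chain of complement C1q (0.23 ± 0.07, adjusted p = 0.027, kept in 10 of the 15 fits that left out 1 animal), and Olfml3 (0.20 ± 0.05, adjusted p = 0.0091). Ctss, a lysosomal protease of microglia, was higher too and had 102 to 122 CPM at P66 (median 112) and 89.8 to 104 CPM at P22 (median 93.4) (0.23 ± 0.04, adjusted p = 0.00056). Apoe was not called (-0.14 ± 0.09). In the list of interferon response and inflammation 4 of 15 genes were called higher, Lcn2, Il1a, Il1r1 and Gbp2, and 2 lower. In the fits that left out 1 animal 0 to 3 were called higher.

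Of the genes with the largest called rises that are named here, those other than Lcn2 were outside the lists. Trpa1, a cation channel opened by irritants, had 0.97 to 2.99 CPM at P66 (median 2.3) and 0.334 to 1.3 CPM at P22 (median 0.838) (1.49 ± 0.24, adjusted p = 0.00023), with overlap in 1 P66 animal. Ntn5 (chr7:45684022-45694556), of the netrin family, had 29.7 to 57.3 CPM at P66 (median 32.7) and 11 to 24.1 CPM at P22 (median 17.9) (1.15 ± 0.17, adjusted p = 0.00012). Tchh, known as a structural protein of hair follicles, had 10.6 to 12.6 CPM at P66 (median 11.8) and 4.41 to 7.97 CPM at P22 (median 6.13) (0.93 ± 0.11, adjusted p = 1.2e-05). Slc25a34, a mitochondrial carrier, had 9.5 to 14.6 CPM at P66 (median 11) and 3.61 to 7.26 CPM at P22 (median 6.88) (0.91 ± 0.14, adjusted p = 0.00021). All 3 of Ntn5, Tchh and Slc25a34 were higher in every P66 animal than in every P22 animal. BC035947 had 1.97 to 6.83 CPM at P66 (median 3.45) and 1.25 to 2.17 CPM at P22 (median 1.74) (1.13 ± 0.24, adjusted p = 0.0026). Wnt16, a secreted Wnt ligand, had 1.07 to 2.73 CPM at P66 (median 1.72) and 0.468 to 1.28 CPM at P22 (median 0.815) (1.12 ± 0.25, adjusted p = 0.0033). Tnfrsf9, a receptor of the tumour necrosis factor family, had 1.57 to 2.67 CPM at P66 (median 2.25) and 0.61 to 1.63 CPM at P22 (median 1.05) (1.00 ± 0.21, adjusted p = 0.002). These 3 overlapped between the ages. Also among the largest rises were Tmem184a (1.15 ± 0.32, adjusted p = 0.016), Bcl3, a cofactor of NF-kB (0.92 ± 0.23, adjusted p = 0.0077), and C1rb, a complement protease with the near-identical copy C1ra (0.94 ± 0.18, adjusted p = 0.0011). Bcl3 had 1.43 to 2.41 CPM in the P66 animals of cohort 2. In the P66 animals of cohort 1 it had 0.707 to 0.765 CPM, inside the P22 range of 0.39 to 0.858 CPM. Exons of Ntn5 share 23.4% of their bases with Sec1 on the other strand, and Sec1 was called higher as well (0.90 ± 0.12, adjusted p = 5.4e-05).

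Lcn2, a siderophore-binding protein of the acute phase response, had the largest fitted rise but not in all animals. It was at 22.8, 22.0 and 18.9 CPM in 3 of the 4 P66 animals of cohort 2, at 0.793 CPM in the remaining one of that cohort, and at 0.314 to 0.689 CPM in the 3 P66 animals of cohort 1. P22 animals had 0.578 to 1.09 CPM. The fitted log2 fold change was 2.69 ± 0.84, adjusted p = 0.034, against -0.98 in cohort 1 and 4.18 in cohort 2. The call was kept in 8 of the 15 fits that each left out 1 animal.

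The remaining large falls were in genes of several roles. Rab7b, a small GTPase of late endosomes, had 1.81 to 5.59 CPM at P66 (median 2.69) and 9.23 to 17.3 CPM at P22 (median 11.6) (-2.01 ± 0.21, adjusted p = 5e-06). Mkrn3 (chr7:62417593-62420139), an imprinted gene known for holding back puberty through the hypothalamus, had 1.15 to 2.46 CPM at P66 (median 1.92) and 4.89 to 7.62 CPM at P22 (median 6.43) (-1.78 ± 0.15, adjusted p = 5.1e-07). Both were lower in every P66 animal than in every P22 animal. Slc45a3 had 1.38 to 3.86 CPM at P66 (median 2.77) and 5.29 to 12.2 CPM at P22 (median 8.23) (-1.55 ± 0.24, adjusted p = 0.00017). Mroh3 had 1.34 to 2.46 CPM at P66 (median 1.69) and 3.43 to 7.37 CPM at P22 (median 5.54) (-1.60 ± 0.19, adjusted p = 1.2e-05). Neither overlapped between the ages. Dmrta1, a transcription factor of neural progenitors, was at 0 in at least 1 P66 animal and had 0 to 1.04 CPM at P66 (median 0.536) and 0.882 to 1.78 CPM at P22 (median 1.49) (-1.52 ± 0.35, adjusted p = 0.0043). Mkrn3 was 1 of 9 imprinted genes called lower of 35 tested, against 1 higher (28.6% called, beside 23.3% of all genes). Its neighbour Peg12 was another (-0.92 ± 0.28, adjusted p = 0.026, kept in 10 of the 15 fits that left out 1 animal). Zdbf2, also lower, had 30.3 to 61.5 CPM at P66 (median 48.3) and 42.8 to 74.2 CPM at P22 (median 69) (-0.52 ± 0.15, adjusted p = 0.024). Gnas was not called (0.04 ± 0.04).

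Changes in the chromatin and housekeeping lists were mostly small. Among 43 tested genes of DNA methylation and chromatin 12 were called lower and 3 higher. Ezh2, the methyltransferase of Polycomb complex PRC2, had 15.9 to 21.4 CPM at P66 (median 19) and 22.2 to 34.1 CPM at P22 (median 29) (-0.59 ± 0.08, adjusted p = 7.8e-05). Tet3, which oxidises methylated cytosine, had 137 to 157 CPM at P66 (median 142) and 161 to 205 CPM at P22 (median 187) (-0.38 ± 0.05, adjusted p = 2.1e-05). Neither overlapped. Mbd4, a DNA glycosylase, was higher and had 26.9 to 32.4 CPM at P66 (median 28.8) and 20.7 to 26.1 CPM at P22 (median 23.4) (0.28 ± 0.05, adjusted p = 0.0013). Of 36 tested cytosolic ribosomal protein genes 16 were called higher and 1 lower (median 0.11), by at most 0.27 on the log2 scale, and 22 were higher and 1 lower with upper-quartile scaling. Rpl27a had 451 to 503 CPM at P66 (median 479) and 388 to 429 CPM at P22 (median 418) (0.21 ± 0.03, adjusted p = 0.00022), without overlap. Rps19 had 250.3 to 287 CPM at P66 (median 270.4) and 198 to 253 CPM at P22 (median 230.4) (0.23 ± 0.05, adjusted p = 0.0027), with overlap. Rplp0 was the exception called lower and had 383 to 463 CPM at P66 (median 423) and 429.5 to 560.1 CPM at P22 (median 509) (-0.23 ± 0.05, adjusted p = 0.0041). The number of ribosomal genes called higher was 0 in cohort 1 alone, 7 in cohort 2 alone, and 11 to 17 when 1 animal was left out. The P22 animal C1-56 had the lowest score (8.06 mean log2 CPM). The summed level of the list was 11600 to 12800 CPM at P66 and 10400 to 12100 CPM at P22. Mitochondrial ribosomal proteins (5 higher, 1 lower of 35), oxidative phosphorylation (1 higher, 5 lower of 37), glycolysis (4 lower of 16) and the proteasome (3 lower of 16) had 17.1%, 16.2%, 25% and 18.8% of their tested genes called in that order, beside 23.3% of all genes. With upper-quartile scaling 0 genes of oxidative phosphorylation and 0 of the proteasome were called lower. The neuronal glucose transporter Slc2a3 had 379 to 396 CPM at P66 (median 392) and 447 to 507 CPM at P22 (median 483) (-0.30 ± 0.03, adjusted p = 3.7e-06), without overlap.

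Of glucocorticoid-induced genes 4 of 11 were called lower and 1, Lcn2, higher. Hif3a, a hypoxia-inducible factor that also responds to glucocorticoids, had 8.95 to 16.6 CPM at P66 (median 15.1) and 20.7 to 50.1 CPM at P22 (median 35.8) (-1.33 ± 0.22, adjusted p = 0.00051), without overlap. In the clock list 3 of 12 were called higher and 2 lower, a share of 41.7%. Arntl, which drives the clock, had 96.4 to 116 CPM at P66 (median 109.6) and 82.2 to 104 CPM at P22 (median 91.8) (0.23 ± 0.05, adjusted p = 0.0059). Of its repressors Per2 (-0.20 ± 0.06, adjusted p = 0.025) and Per3 (-0.22 ± 0.08, adjusted p = 0.047) were lower, calls kept in 12 and 4 of the 15 fits that left out 1 animal. Bhlhe40, another repressor of the clock, was called higher, and that call was kept in 15 of those fits. Clock and Cry2 were not called. With upper-quartile scaling 4 clock genes were called higher and 0 lower. The labels used here do not give the hour of death, so its part in the clock genes was not tested. Among 14 immediate early genes 1 was called higher, Jun (0.20 ± 0.05, adjusted p = 0.0072), and 3 lower, among them Plk3 (-0.40 ± 0.09, adjusted p = 0.004). The share called was 28.6%, beside 23.3% of all genes. In the list of cadherins and catenins 6 of 19 were called lower and 1 higher, a share of 36.8%. Ctnna2, the neuronal alpha catenin, had 274 to 296 CPM at P66 (median 283) and 338 to 369 CPM at P22 (median 349) (-0.30 ± 0.03, adjusted p = 2.4e-06), without overlap.

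Markers of neighbouring tissues bear on how evenly the hippocampus had been cut out. Of 20 choroid plexus genes 1 was called lower, the copper transporter Slc31a1 (-0.53 ± 0.10, adjusted p = 0.00086), and 0 higher. In 14 of the 20 the log2 fold change was positive, and the list's median was 0.08 against 0.001 over all genes. Of 23 genes of ependyma and motile cilia 1 was called higher and 0 lower, while 19 of the 23 had a positive log2 fold change (median 0.15). Of 14 genes of thalamus and habenula 2 were called higher, Lhx9 (0.34 ± 0.06, adjusted p = 0.00065) and Ntng1 (0.28 ± 0.07, adjusted p = 0.0092), and 0 lower. The list as a whole did not rise, as 9 of the 14 had a negative log2 fold change and the median was -0.10. Of 11 genes of neocortex and striatum 2 were called lower, Cux2 (-0.35 ± 0.10, adjusted p = 0.015) and Cux1 (-0.22 ± 0.06, adjusted p = 0.0092). Without the P22 libraries C1-32 and C2-27, a setting chosen after the data were seen, 5 choroid plexus genes and 10 ependymal genes were called higher at P66, and without C1-56 as well 4 and 7. With the choroid plexus score as a covariate the falls of the leading lists were 14 of 14 in oligodendrocyte precursors, 13 of 20 in myelin, 14 of 29 in newborn neurons, 17 of 38 in the cell cycle, and 14 of 26 in vessels. Without C1-32 and C2-27 they were 14, 11, 15, 14 and 10 in the same order, and without C1-56 as well 13, 11, 14, 13 and 13.

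**Figure D4:**
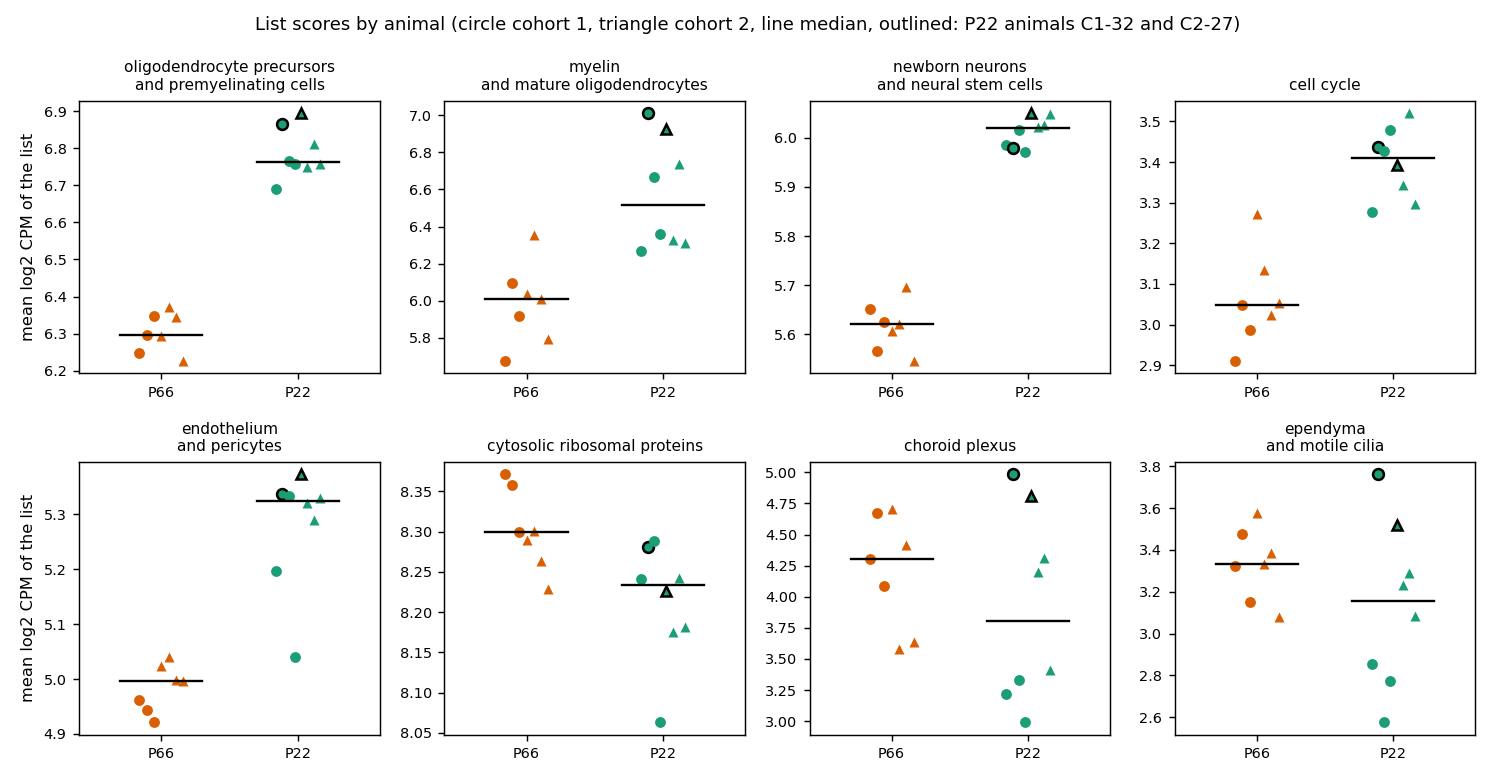
Mean log2 CPM (vertical) of 8 gene lists in each P66 animal (left, orange) and P22 animal (right, green); circles are cohort 1, triangles cohort 2, lines the medians, and outlined points the P22 animals C1-32 and C2-27. The oligodendrocyte precursor, newborn neuron and cell cycle scores do not overlap between the ages, while choroid plexus and ependyma scores overlap; the choroid plexus score is highest in the 2 outlined animals and the ependyma score in C1-32.

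The same age change was then read in the other 3 groups of rearing and genotype, which share no animal with the control wildtype group. Separated wildtype mice (10 at P66, 11 at P22) had 2186 of 6896 genes called (31.7%), control knockout mice (7 and 9) 1724 of 6924 (24.9%), and separated knockout mice (7 and 10) 686 of 6945 (9.88%). Of the genes called higher in control wildtype mice 95.1%, 95.3% and 97.9% had the same direction in these groups in that order, where 51.9%, 51.0% and 54.9% of all tested genes were positive. Of the genes called lower 94.6%, 97.7% and 97.7% had the same direction. None was called in the opposite direction by edgeR in any of the 3 groups. Called in all 4 groups were 132 rises and 312 falls, and 197 rises and 176 falls were called in control wildtype mice alone. Falls were called again more often than rises: in separated wildtype mice 70.8% of the falls and 57.1% of the rises, a difference that was not tested.

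**Figure D5:**
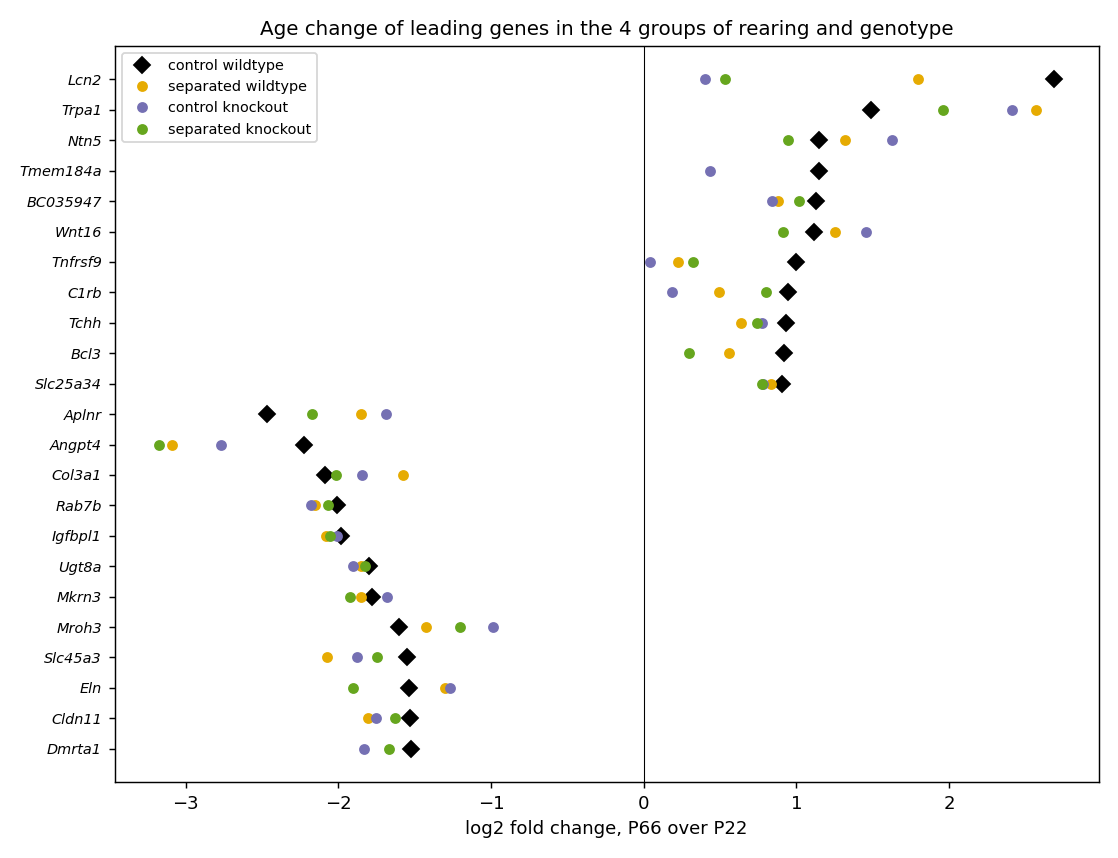
Log2 fold change of P66 over P22 (horizontal) of genes among the 12 with the largest called rises and the 12 with the largest called falls in control wildtype mice, 1 gene a row; black diamonds are control wildtype, yellow separated wildtype, purple control knockout and green separated knockout mice, and a missing point is a gene not tested in that group. The falls of Rab7b, Igfbpl1, Ugt8a and Mkrn3 nearly coincide in the 4 groups, and the rises of Lcn2, Tnfrsf9 and C1rb are smaller in the others.

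Igfbpl1 changed by -1.98 ± 0.13 (log2) in control wildtype mice, against -2.08, -2.01 and -2.05 in separated wildtype, control knockout and separated knockout mice. In the same order, Ugt8a changed by -1.80 ± 0.13 in control wildtype mice, against -1.85, -1.90 and -1.82 in the others. Trpa1 had 1.49 ± 0.24 in control wildtype mice, against 2.57, 2.41 and 1.96. For Tnfrsf9 the values were 1.00 ± 0.21 in control wildtype mice, against 0.23, 0.04 and 0.32. A test of the difference between the age change of control wildtype mice and the mean of the other 3 groups called 0 of 7131 genes in edgeR (269 at an unadjusted p under 0.05, smallest adjusted p 0.544) and 0 by limma-voom. The smallest p values were those of Card9, Tas1r3, Fadd, Tnfrsf9 and Ttc39a. Of the lists, 10 of the 11 falls in the myelin list and 9 of the 14 in the oligodendrocyte precursor list were called in all 4 groups, as were 9 of 12 in the collagen list, 9 of 14 in the newborn neuron list and 9 of 17 in the cell cycle list. Of the 16 ribosomal protein genes called higher, 1 was called in all 4 groups.

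Within the control wildtype mice both cohorts gave the same direction for the called genes named above, other than Lcn2 (Fcrls and Inpp5d left aside). Neu4 changed by -0.94 in cohort 1 and -0.98 in cohort 2, and Igfbpl1 by -1.90 in cohort 1 and -2.05 in cohort 2. Mki67 changed by -1.49 in cohort 1 and -0.87 in cohort 2, and Aplnr by -2.49 in cohort 1 and -2.45 in cohort 2. Cohort 1 alone, with 7 animals, called 261 genes and cohort 2 alone, with 8 animals, 884. A test of the difference in age change between the cohorts called 0 of 6906 genes in edgeR (378 at an unadjusted p under 0.05, smallest adjusted p 0.888) and 0 by limma-voom. The smallest p values were those of Lrif1, Tiparp, Hopx, Sgol2a and Lcn2.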

How the data were processed

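Bulk RNA sequencing of male mouse hippocampus gave a table of whole-number counts per gene, deposited by the authors for 69 libraries. FastQC 0.11.4, cutadapt 1.16, edgeR and limma 3.34.9 are named per the submitters' processing notes; the aligner, counter, strand setting and genome build were not given in the sources used here. As held here, the deposited table has 9930 complete records, all protein-coding, and 1 broken record at its end that was left out. Of its gene identifiers 9885 (99.55%) were found in GENCODE M21, 96.5% of these at the same position, so positions are on GRCm38. All value columns matched a library's labels. No library pair within an age looked like the same library deposited again: over 49 pairs the chi-square per degree of freedom of their counts was 4.6 to 32.

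The 7 P66 and 8 P22 control wildtype libraries were fitted in edgeR 4.0.16 (R 4.3.3) by the quasi-likelihood test with robust dispersions, TMM scaling, cohort as a covariate, a filter at a minimum count of 10 and a total of 15, and Benjamini-Hochberg adjustment over all 6906 genes that passed, of 9930. Folds past 1.5 were tested with glmTreat. The other groups were fitted in the same way, and differences between groups or cohorts by an interaction term. Scores are the mean log2 CPM of a list. Counts were not divided by gene length, so levels are compared only within a gene. The labels give separate animals, so replicates are biological, but litters are not known. The script for all genes was tested on simulated data.

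Named were the 12 largest called rises and falls whose mean log2 CPM was 0 or above, and from each list with at least 5 tested genes up to 4 called genes in each direction with the largest change and the 2 genes not called with the highest mean CPM. The 5 genes with the smallest p in each test of a difference were named too. Some genes that the rule names are not reported here. Matn4, Cdc20, Cks1b, Ccnd2, Gins1, Pcna, Mcm3, Mcm7, Col4a1, Hbb-bs, Hbb-bt, Sec1 and C1ra fall outside this rule and were chosen after their values were seen. The same holds for Klk6, Insm1, Pax6, Hes5, Fcrls and Inpp5d. The comparison and the lists were chosen with earlier results of these data known. Promoter sequences are from RefSeq (GRCm38.p6), with the first entry used where a gene had several. Alternatives were DESeq2 1.42.0, limma-voom (limma 3.58.1), other scalings and filters, other designs, each cohort alone, and each animal left out.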

Additional observations from a re-analysis of the deposited data

Results flagged for a closer look

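In groups of 7 or 8 animals, 142 sets of values were looked at, those of 24 genes with the largest changes and of 47 list scores at each age. In 9 of them the highest or lowest animal lay apart from the others by Dixon's criterion at 95%, which chance alone gives in about 1 in 20 groups. Among the genes, Angpt4 at P66 was highest in animal C2-84 (0.555 CPM, the next at 0.328), and Eln at P22 was highest in animal C2-27 (111 CPM, the next at 71.6). Both animals kept these genes on their own age's side of the comparison. Among the scores, given as mean log2 CPM, animal C1-58 at P66 was lowest for postsynaptic scaffold and adhesion genes (8.32, the next at 8.36) and for splicing regulators (7.85, the next at 7.99). At P22 animal C1-56 was lowest for astrocyte genes (8.41, the next at 8.55). Animal C1-50 was highest for genes of thalamus and habenula (5.03, the next at 4.53) and lowest for clock genes (6.15, the next at 6.24). Animal C1-32 was lowest for genes of the dentate gyrus and CA fields (7.02, the next at 7.17) and highest for imprinted genes (6.37, the next at 6.20).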

How the results depend on the processing

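The count of 1606 called genes was 1381 to 1693 when 1 animal was left out, with 577 to 751 higher and 804 to 962 lower, and the 35 genes past 1.5-fold were 26 to 42. DESeq2 called 1800 genes, limma-voom 1607, RLE size factors 1611, the fit with no count filter 1456, the fit to all 69 libraries 1342, and the fit with the choroid plexus score 1756. Upper-quartile scaling moved the balance to 1092 higher and 650 lower, 62.7% higher of those called against 44.2%. Cohort 1 alone called 261 genes (72 higher, 189 lower) and cohort 2 alone 884 (337 higher, 547 lower), with 7 and 8 animals in place of 15. An adjusted p under 0.01 left 895 (354 higher, 541 lower), and a fold of at least 1.5 with an adjusted p under 0.05 left 209 (60 higher, 149 lower). Without the P22 libraries C1-32 and C2-27, chosen after the data were seen, 1748 were called, of which 1426 were among the 1606, and without C1-56 as well, also chosen then, 1648, of which 1358. Of the 195 named genes that were called, 1 changed direction in those of these settings that tested it, Lcn2 in cohort 1 alone (-0.98); the cause was not tested. Of the 195, 193 stayed called with limma-voom, 175 with upper-quartile scaling, 152 in the fit to all libraries, and 168 to 187 with 1 animal left out. No paired analysis was possible because numbers name single animals and link no P66 animal to a P22 animal. Depth limits mainly genes of low level, where called changes were larger.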
